A study of Mus musculus with 9 samples.

Results

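Genes of neutrophil granules and of calprotectin were followed through the colon of mice with colitis that had received human mesenchymal stem cells (MSCs) or buffer on the day before. The 8 genes were *S100a8*, *S100a9*, *Ltf*, *Csf3r*, *Lcn2*, *Ngp*, *Camp* and *Mmp8*. They were chosen by gene symbol, with earlier results of these data known, and each had 1 entry among the 38087 genes measured. All mice were C57BL/6 males aged 10 to 12 weeks given dextran sulfate sodium (DSS) to cause colitis, a salt that injures the colonic epithelium when taken in drinking water. Human MSCs from adipose tissue (AD-MSC), human MSCs from umbilical cord tissue (UC-MSC) or saline buffer without cells (PBS, control) were injected intravenously, and RNA of the medial colon was sequenced in 3 libraries a group, 9 in all. The control mice therefore also had DSS colitis, and no mice without DSS were analysed here. By the methods, the colon was taken while the course of DSS was still running. The injected cells were human cells in mice with an intact immune system, and the number of human donors is not given in the sources used here.

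Neutrophils are short-lived white blood cells that enter the colon early in colitis. They store antimicrobial proteins in granules that are filled in sequence during maturation in the bone marrow. *S100a8* and *S100a9* encode the 2 subunits of calprotectin, a cytosolic protein that withholds zinc and manganese from microbes and is measured in stool as a marker of intestinal inflammation. Transcripts of many granule proteins are made in marrow precursors and are low in mature cells, whereas calprotectin and the receptor for granulocyte colony-stimulating factor (G-CSF) are still transcribed in circulating neutrophils.

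The table gave 1 mean per gene and group, as log2 of reads after division by the library's size factor, a number that corrects for depth. Levels are given below as normalized reads, the antilog of that mean. A library without reads for a gene, or with less than 1 normalized read, had been set to 1, so 1 is the lowest possible level. Values of single mice were not used here, so no spread between mice, no test and no p-value can be given, and no difference was checked on replicates. Summed over genes, the raw group means came to 8.22e+06 reads in AD-MSC, 5.03e+06 in UC-MSC and 7.30e+06 in control. The size factors worked out from the values were 0.893, 1.47 and 1.51 in AD-MSC, 0.538, 0.727 and 0.938 in UC-MSC, and 0.721, 1.41 and 1.46 in control, so the UC-MSC libraries were on average the shallowest.

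The promoters of *S100a8*, *S100a9*, *Ltf* and *Camp* are shown as examples. The first 3 genes had their highest level in UC-MSC mice, as had 6 of the 8 in all. *Camp* lay close to the floor in every group, as did *Ngp*, which is not shown. Each line is the 250 bases before the RefSeq start of transcription on the strand of the gene (assembly GRCm38.p6), at chr3:90668821-90669070 for *S100a8* (plus strand), chr3:90695722-90695971 for *S100a9* (minus strand), chr9:111019042-111019291 for *Ltf* (plus strand) and chr9:109849457-109849706 for *Camp* (minus strand). Capitals mark matches on either strand to 2 letter patterns of transcription factors that act in granulocyte development, TTGCNNAA for C/EBP proteins and GAGGAA for PU.1.
S100a8: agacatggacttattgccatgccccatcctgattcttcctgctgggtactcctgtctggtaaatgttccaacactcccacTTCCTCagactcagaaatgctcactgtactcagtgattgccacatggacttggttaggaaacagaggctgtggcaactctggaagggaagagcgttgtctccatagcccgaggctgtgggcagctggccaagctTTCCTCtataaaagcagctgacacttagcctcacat
S100a9: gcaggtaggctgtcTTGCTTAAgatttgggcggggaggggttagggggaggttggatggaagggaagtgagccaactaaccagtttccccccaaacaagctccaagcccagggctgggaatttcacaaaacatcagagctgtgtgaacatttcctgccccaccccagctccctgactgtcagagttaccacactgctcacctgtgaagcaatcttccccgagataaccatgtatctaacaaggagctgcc
Ltf: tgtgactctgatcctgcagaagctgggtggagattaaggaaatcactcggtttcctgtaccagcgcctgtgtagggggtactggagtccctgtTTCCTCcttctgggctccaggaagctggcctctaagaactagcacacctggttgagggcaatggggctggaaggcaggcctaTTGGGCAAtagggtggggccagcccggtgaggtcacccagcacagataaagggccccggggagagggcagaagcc
Camp: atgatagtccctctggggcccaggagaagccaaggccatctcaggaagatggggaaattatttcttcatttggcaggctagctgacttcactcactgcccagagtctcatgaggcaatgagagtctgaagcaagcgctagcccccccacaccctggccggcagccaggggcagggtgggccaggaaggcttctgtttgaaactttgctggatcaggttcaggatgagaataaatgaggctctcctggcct

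All 8 members matched a RefSeq promoter of this length. The C/EBP letters were present in 5 of the 8 (*S100a9*, *Ltf*, *Lcn2*, *Mmp8* and, at 2 places, *Ngp*), and in 9.58% of 32544 promoters of the same length. The PU.1 letters were present in 5 of the 8 (*S100a8* at 2 places, *Ltf*, *Csf3r*, *Lcn2* and *Mmp8*), and in 23.4% of all promoters. *Camp* held neither. For 3 genes, *Csf3r*, *Lcn2* and *Ngp*, the RefSeq start lies inside the span the table gives the gene, so the end of the window lies within that span. Leaving out matches there, which are the PU.1 matches of *Csf3r* and *Lcn2* and 1 of the 2 C/EBP matches of *Ngp*, the C/EBP letters were in 5 of the 8 and the PU.1 letters in 3. The STAT letters TTCNNNGAA, present in 7.04% of promoters, were in none of the 8 windows, and a kappa-B consensus, present in 7.28%, was in that of *Csf3r* alone. These matches are descriptions of letters in a fixed window and not of bound sites.

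Calprotectin transcripts were low in all groups and highest in UC-MSC mice. *S100a8* (ENSMUSG00000056054, chr3:90669071-90670034, plus strand, GRCm38/mm10) had 2.07 normalized reads in AD-MSC mice, 11.6 in UC-MSC mice and 3.65 in control mice. The level in UC-MSC mice was 3.17-fold that of control, a log2 difference of 1.67, and the level in AD-MSC mice was 1.76-fold lower than control (log2 difference -0.82). *S100a8* had reads in 3 UC-MSC libraries, in 2 AD-MSC libraries and in 2 control libraries. The AD-MSC library of size factor 1.47 and the control library of size factor 1.41 had none. A count of 0 allows up to 3 reads, which is 2.04 normalized reads in the first of these libraries and 2.12 in the second, counting error only. Both limits lay below the UC-MSC mean. A library at the floor adds 0 to a mean of log2 values, so the mean of the other libraries can be had. Without that control library, control had 6.97 normalized reads and UC-MSC mice were 1.66-fold above it (log2 difference 0.73), under 2-fold, so the fold of 3.17 rests on 1 control library. AD-MSC against control also turned on such libraries, with a log2 difference of -0.29 without the AD-MSC library of size factor 1.47 and -1.75 without the control library.

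*S100a9* (chr3:90692632-90695721, minus strand), whose product pairs with that of *S100a8*, lies 22.6 kb away and had the same order of groups. Its level was 3.47 normalized reads in AD-MSC mice, 18.8 in UC-MSC mice and 5.30 in control mice. UC-MSC mice were 3.54-fold above control (log2 difference 1.83), and AD-MSC mice were 1.53-fold below control (log2 difference -0.61). The libraries that lacked *S100a8* reads were also low for *S100a9*: the AD-MSC library of size factor 1.47 had no reads and the control library of size factor 1.41 had 1 read, which put it at the floor. Without that control library, control had 12.2 normalized reads and UC-MSC mice were 1.54-fold above it (log2 difference 0.62), so the fold of 3.54 also rests on 1 control library. The AD-MSC difference was 0.28 without the AD-MSC library, which turns its direction, and -1.82 without the control library. The low group means of both calprotectin genes thus rested on few reads, with raw group means of 3.46 reads in AD-MSC, 8.29 in UC-MSC and 7.14 in control for *S100a8*, each taken over the libraries that had reads. For *S100a9* the raw means were 7.49 in AD-MSC, 13.4 in UC-MSC and 5.38 in control. The table lists the 2 genes as paralogs within the S100 family.

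**Figure D1:**
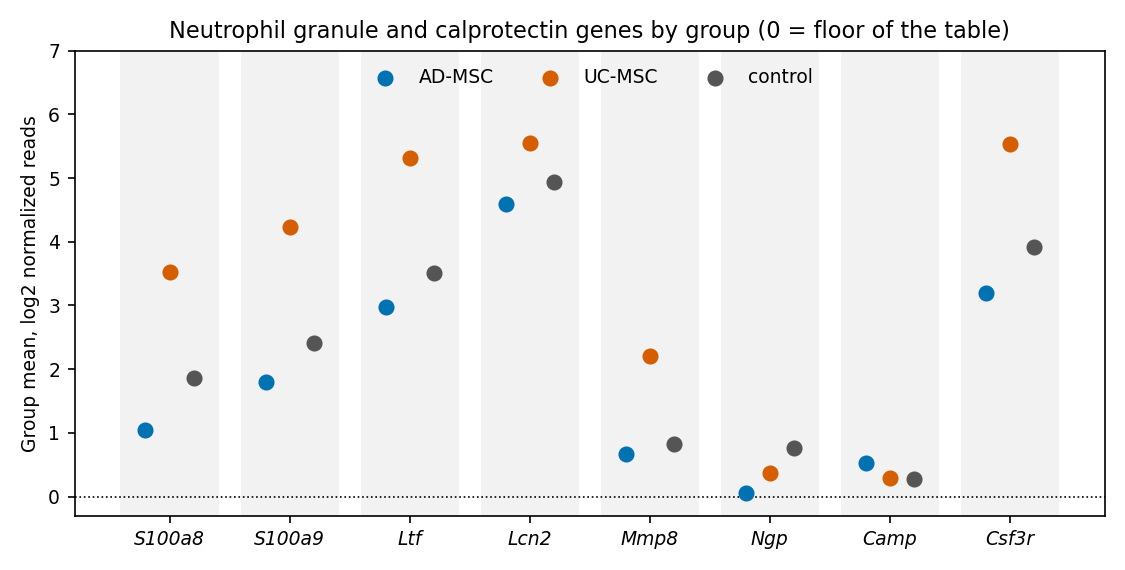
Group means of the 8 genes on a log2 scale of normalized reads, with AD-MSC, UC-MSC and control from left to right within each gene; each point is the authors' mean of 3 libraries and no spread was available. *Ltf*, *Csf3r* and the calprotectin genes are highest in UC-MSC mice, while *Ngp* and *Camp* lie between 1.04 and 1.69 normalized reads in every group.

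Among the granule proteins, *Ltf* had the greatest difference between UC-MSC and control. It encodes lactoferrin, an iron-binding protein of secondary granules that is also secreted by glandular epithelia. *Ltf* (chr9:111019292-111042766, plus strand) had 7.88 normalized reads in AD-MSC mice, 39.8 in UC-MSC mice and 11.4 in control mice, with reads in all 9 libraries. The difference between UC-MSC and control was 1.81 on the log2 scale (3.50-fold). Where all libraries had reads, a lower limit of the error can be had from the reads alone, and this smallest counting error was 0.28 for *Ltf*, an interval of 1.26 to 2.36 at 95%. It covers counting error only, and the spread between mice is not in it. AD-MSC mice lay below control by a log2 difference of -0.53, with a counting interval of -1.22 to 0.16 that includes 0, so this difference was not detectable at this depth.

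*Lcn2* was the most abundant of the 8 in raw reads and the least different between groups of those with reads in all 9 libraries. Its product, lipocalin 2, captures bacterial siderophores and is made by neutrophils and by inflamed colonic epithelium. *Lcn2* (chr2:32384633-32387797, minus strand) had 24.2 normalized reads in AD-MSC mice, 47.1 in UC-MSC mice and 30.7 in control mice. The raw group means were much closer, 30.3 reads in AD-MSC, 33.7 in UC-MSC and 35.0 in control. In raw reads UC-MSC lay slightly below control, but its libraries were on average the shallowest, and its normalized level is higher once depth is corrected for. With the groups scaled to equal totals instead, the log2 difference of UC-MSC against control was 0.48. UC-MSC mice were 1.53-fold above control (log2 difference 0.62, counting interval 0.22 to 1.01) and did not reach 2-fold. For AD-MSC against control the log2 difference was -0.35, with an interval of -0.75 to 0.06 that includes 0.

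*Mmp8*, *Ngp* and *Camp* were near the floor. *Mmp8* encodes neutrophil collagenase, a protease of secondary granules that cuts fibrillar collagen. *Mmp8* (chr9:7558429-7568486, plus strand) had 1.58 normalized reads in AD-MSC mice, 4.61 in UC-MSC mice and 1.76 in control mice. The AD-MSC value came from 6 reads in 1 library, that of size factor 1.51, and the UC-MSC value from 3 libraries with a raw mean of 3.30 reads. UC-MSC mice were 2.61-fold above control on this scale, which depends on the floor of 1.

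*Ngp* and *Camp* encode neutrophilic granule protein and the precursor of the cathelicidin antimicrobial peptide, both of secondary granules and each listed as the only paralog of the other. *Ngp* (chr9:110419750-110423010, plus strand) had 1.04 normalized reads in AD-MSC mice, 1.29 in UC-MSC mice and 1.69 in control mice. *Camp* (chr9:109847375-109849456, minus strand) had 1.44 in AD-MSC mice, 1.23 in UC-MSC mice and 1.21 in control mice. The UC-MSC value of *Camp* was 1 read in the library of size factor 0.538. With so few reads no fold is given for either gene, and a difference was not detectable at this depth. *Camp*, *Ngp* and *Ltf* lie on the same stretch of chromosome 9, with 570 kb between *Camp* and *Ngp* and 596 kb between *Ngp* and *Ltf*, yet 1 of the 3 had a level well above the floor.

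*Csf3r*, the receptor through which G-CSF drives the making and survival of neutrophils, followed *Ltf* closely. *Csf3r* (chr4:126024550-126044440, plus strand) had 9.19 normalized reads in AD-MSC mice, 46.5 in UC-MSC mice and 15.1 in control mice, with reads in all 9 libraries. UC-MSC mice were 3.08-fold above control, a log2 difference of 1.62 with a counting interval of 1.14 to 2.11. AD-MSC mice were 1.64-fold below control, a log2 difference of -0.71 with an interval of -1.34 to -0.09. This was the only one of the 3 AD-MSC differences with a counting interval that left out 0, and the spread between mice is not in that interval.

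Levels of different genes can be set side by side only per length of exon. The length used was the union of all annotated exons of a gene. It was 0.522 kb for *S100a9* and 2.62 kb for *Lcn2*, most of the span of that gene. A shorter length for *Lcn2*, such as that of a single transcript, would raise its value, so the order below holds for this length only. Per kilobase of that union, *S100a9* had the highest level of the 8 in UC-MSC mice, at 36.0 normalized reads per kb. It was followed by *Lcn2* at 18.0, *S100a8* at 16.7, *Csf3r* at 12.9 and *Ltf* at 11.5. *Mmp8*, *Camp* and *Ngp* had 1.90, 1.62 and 1.05. In control mice *Lcn2* led at 11.7 per kb, ahead of *S100a9* at 10.2, and in AD-MSC mice it led at 9.21 against 6.64 for *S100a9*. *S100a9* lay above *S100a8* in every group, with *S100a8* at 2.99 (AD-MSC), 16.7 (UC-MSC) and 5.26 (control) per kb.

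Over the 8 genes, UC-MSC mice had the higher level of 7 against control, and 5 of the 8 were at least 2-fold higher (*S100a8*, *S100a9*, *Ltf*, *Csf3r* and *Mmp8*). *Ngp* was the lower one, and the log2 difference of *Camp*, 0.02, changed sign at equal totals. Of 15026 genes averaging 10 or more normalized reads over both groups, 5.09% were at least 2-fold higher in UC-MSC and 2.66% at least 2-fold lower. The control library of size factor 1.41 was at the floor for both calprotectin genes and could be left out for these alone. Without it, *S100a8* and *S100a9* were under 2-fold. With the other genes unchanged, 3 of the 8 were left at least 2-fold higher, with a median log2 difference of 0.68. How far *Ltf*, *Csf3r* and *Mmp8* depend on that library cannot be told from the means. Only 4 of the 8 genes averaged 10 or more normalized reads, and 3 of these were 2-fold higher. Low genes more often reached 2-fold: among genes with a mean of 5 to 50 normalized reads, 12.0% were 2-fold higher and 7.95% lower, and of the 5 members in that range 4 were 2-fold higher. The median log2 difference of the 8 was 1.51, against -0.02 over all genes compared. Scaling the groups to equal totals instead moved every UC-MSC difference down by 0.13 and the share of higher genes among the 2-fold differences to 47.3%, against 65.7% with the authors' scaling. Relative to that shift, the median of the 8 was 1.37.

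AD-MSC mice had the lower level of 7 of the 8 genes against control, *Camp* being the exception, and none of the 8 differed by 2-fold. Without the control library of size factor 1.41, *S100a8* and *S100a9* were 3.36-fold and 3.52-fold lower in AD-MSC mice. With the AD-MSC library of size factor 1.47 left out for the genes it had at the floor, 3 of the 8 were higher. These were *S100a9*, *Camp* and *Mmp8*, and the genes with reads in that library were unchanged. The shares over all 14960 genes compared were 1.69% for 2-fold higher and 2.01% for 2-fold lower in AD-MSC. The median log2 difference of the 8 was -0.57, against -0.01 over all genes. Among genes of 5 to 50 normalized reads, 7.42% were 2-fold higher and 6.38% lower in AD-MSC, and 3 of the 8 lay in that range. With 2 of the 8 averaging 10 or more normalized reads, most of these values rested on libraries with few or no reads.

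UC-MSC mice set directly against AD-MSC mice had the higher level of 7 of the 8 genes, *Camp* again being the exception, and 5 were at least 2-fold higher, as were 4.50% of 15074 genes compared, with 2.30% 2-fold lower. In the range of 5 to 50 normalized reads, which held 5 of the 8, these shares were 10.8% and 7.44%. *Ltf* was 5.05-fold higher in UC-MSC (log2 difference 2.34, smallest counting error 0.31) and *Csf3r* 5.06-fold higher (2.34, 0.28). *S100a8* and *S100a9* were 5.59-fold and 5.42-fold higher, in each case with 1 AD-MSC library without reads, and were 3.88-fold and 2.91-fold higher when that library was left out. *Lcn2* was 1.95-fold higher, with a log2 difference of 0.96 and a smallest counting error of 0.21. In 6 of the 8 genes the order of groups was UC-MSC, control, AD-MSC from high to low. The 3 comparisons share groups and are not independent of each other.

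**Figure D2:**
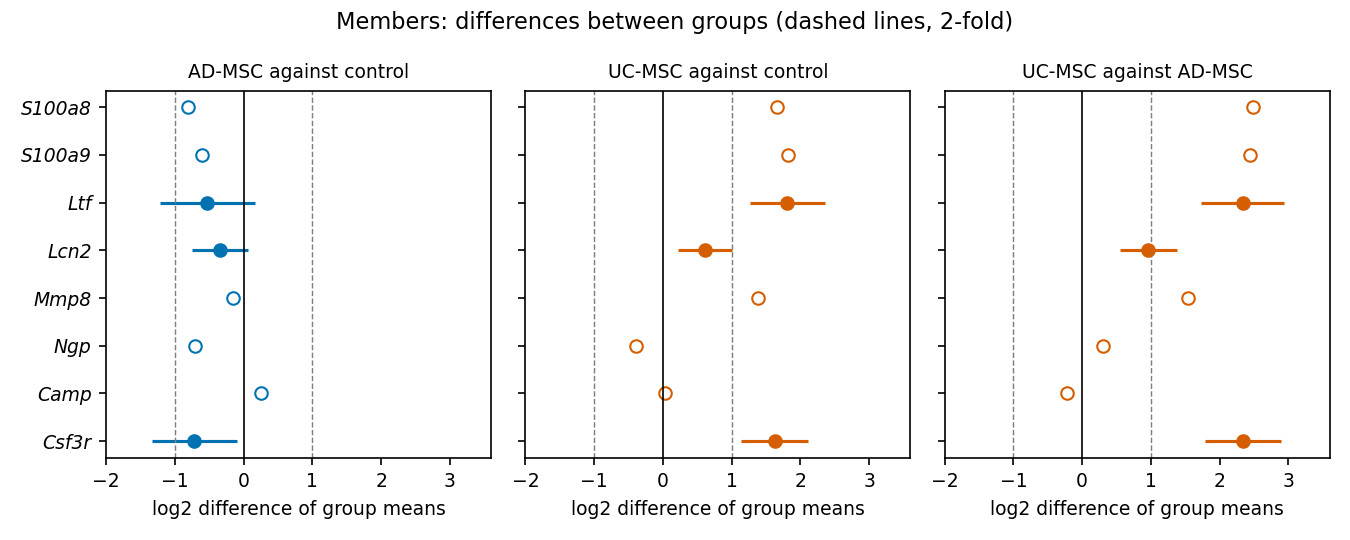
Differences of group means on the log2 scale in 3 panels, AD-MSC against control, then UC-MSC against control, then UC-MSC against AD-MSC; bars are 95% counting intervals, which leave out the spread between mice, and open points are genes with a library that had no read or was set to the floor. In the middle panel *Ltf* (1.81), *S100a9* (1.83), *S100a8* (1.67) and *Csf3r* (1.62) lie together, with *Lcn2* at 0.62; the calprotectin points were 0.73 (*S100a8*) and 0.62 (*S100a9*) without 1 control library at the floor.

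**Figure D3:**
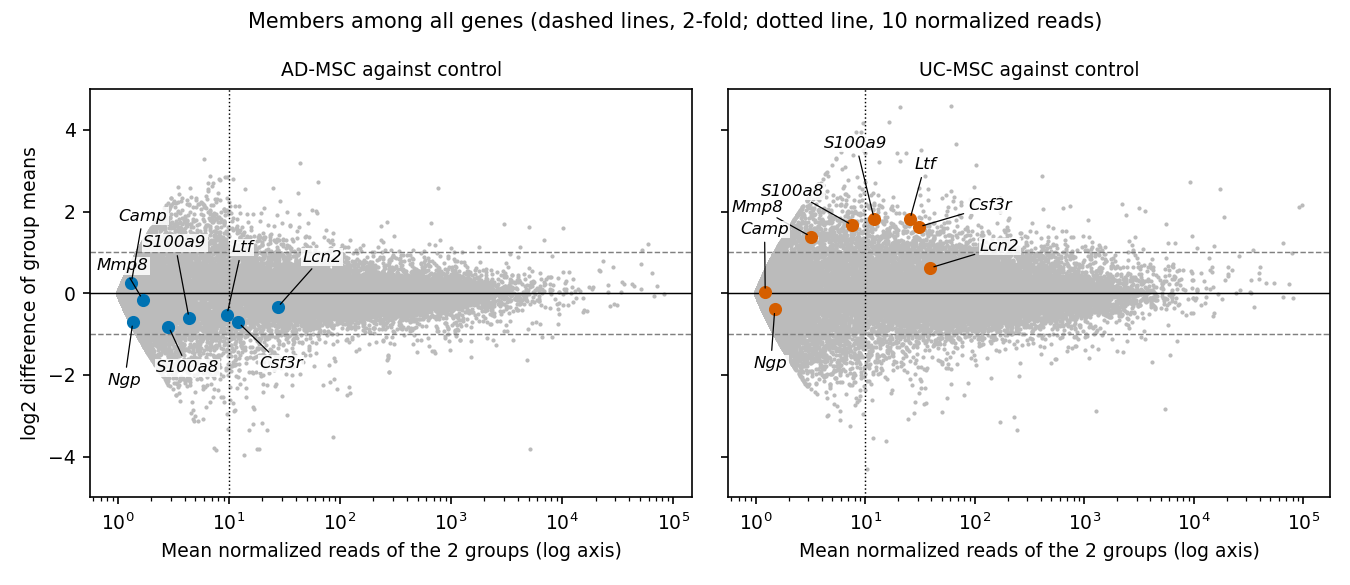
The log2 difference of group means for every gene, those at the floor of 1 normalized read included, against the mean of the 2 groups on a log axis, with the 8 genes in colour. The grey cloud widens to the left, where most of the 8 genes lie, and *Ltf* (1.81) and *Csf3r* (1.62) stand above the 2-fold line at higher means in UC-MSC against control.

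Other genes of the neutrophil were read from lists chosen by function, also with earlier results of these data known. In bulk tissue, fewer cells of a type and less RNA per cell cannot be told apart. Of 15 further genes of secondary and tertiary granules, 9 averaged 10 or more normalized reads over UC-MSC and control, the minimum used for all lists. Of these, 8 were higher in UC-MSC mice, 5 of them at least 2-fold, and the median log2 difference was 1.18. Those 5 were *Mmp9*, *Hp*, *Slpi*, *Itgam* and *Cybb*, and *Cybb* is counted again among the phagocyte oxidase genes below. *Olfm4* and *Fcnb* stood at the floor in all groups, and *Chi3l3* and *Mmp25* were below the minimum. How much of the difference came from neutrophils was not tested. *Mmp9*, the gelatinase of tertiary granules, had 10.3 normalized reads in AD-MSC mice, 33.5 in UC-MSC mice and 11.8 in control mice. *Slpi*, a protease inhibitor that epithelia also make, had 24.4 in AD-MSC mice, 307 in UC-MSC mice and 115 in control mice. The exception was *Cd177*, a surface partner of proteinase 3, with 834 in AD-MSC mice, 364 in UC-MSC mice and 605 in control mice. In AD-MSC against control, 3 of 10 such genes were higher, 1 at least 2-fold, and 7 lower, 2 at least 2-fold, with a median of -0.19.

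Several primary granule genes, which are transcribed in the earliest precursors, were almost unread. *Elane* (neutrophil elastase) and *Ctsg* (cathepsin G) stood at the floor in all groups. *Mpo* (myeloperoxidase) had 2.02 normalized reads in AD-MSC mice, 1.11 in UC-MSC mice and 1.65 in control mice. In the stefin A cluster, whose genes are abundant in mouse neutrophils, none of 7 genes reached the minimum, and the sums over the list were 7.84 in AD-MSC, 8.89 in UC-MSC and 7.86 in control.

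In the list of receptors and other genes of mature neutrophils, more genes reached the minimum than in the primary granule and stefin A lists, but levels ranged widely. *Mxd1* had 5512 normalized reads in AD-MSC mice, 7109 in UC-MSC mice and 4800 in control mice. *Cxcr1* had 1.49 in AD-MSC mice, 1 in UC-MSC mice and 1.58 in control mice, and *Mrgpra2b* stood at the floor in all groups. Of 29 genes, 17 reached the minimum in UC-MSC against control. In UC-MSC mice 15 were higher and 4 of them at least 2-fold, with a median log2 difference of 0.75, and in AD-MSC against control the median was -0.08. *Cxcr2*, the receptor for neutrophil-attracting chemokines, had 11.3 normalized reads in AD-MSC mice, 25.7 in UC-MSC mice and 8.31 in control mice. The neutrophil surface marker *Ly6g*, one of a family of like sequence and therefore less certain, had 149 in AD-MSC mice, 463 in UC-MSC mice and 194 in control mice. *Fcgr4*, an Fc receptor of neutrophils and macrophages, had 12.3 in AD-MSC mice, 39.5 in UC-MSC mice and 12.1 in control mice. *Retnlg*, abundant in mouse neutrophils, was at 1.88 in AD-MSC mice, 3.47 in UC-MSC mice and 1 in control mice.

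Of the 6 phagocyte oxidase genes, 5 were higher in UC-MSC mice than in control and 1 of them at least 2-fold, with a median log2 difference of 0.39. *Cybb*, the catalytic subunit, had 95.3 normalized reads in AD-MSC mice, 211 in UC-MSC mice and 93.3 in control mice, while its partner *Cyba* had 213 in AD-MSC mice, 194 in UC-MSC mice and 249.6 in control mice. In AD-MSC mice 5 of the 6 were lower than in control, 1 at least 2-fold, with a median of -0.36.

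Genes upstream of neutrophil entry were few in reads. Of 16 attractants, growth factors and related genes, 5 reached the minimum, and all 5 were lower in AD-MSC mice than in control, 3 of them at least 2-fold, with a median of -1.11. In UC-MSC mice 4 of the 5 were higher than in control, with a median of 0.43. *Cxcl5*, a chemokine of epithelial cells, had 17.7 normalized reads in AD-MSC mice, 97.3 in UC-MSC mice and 69.3 in control mice, and *Cxcl1* had 10.9 in AD-MSC mice, 25.0 in UC-MSC mice and 35.2 in control mice. *Csf3*, which encodes the ligand of *Csf3r*, lay near the floor at 1.65 in AD-MSC mice, 1.94 in UC-MSC mice and 1.89 in control mice.

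Of the kinases and regulators that act below *Csf3r*, all 7 that were read sufficiently were higher in UC-MSC mice than in control and none by 2-fold, with a median log2 difference of 0.18, close to the shift of 0.13 between scalings. *Jak2*, which carries the G-CSF signal, had 807 normalized reads in AD-MSC mice, 1037 in UC-MSC mice and 811 in control mice. The same 7 were all lower in AD-MSC mice than in control, 1 of them at least 2-fold, with a median of -0.22. That one was the target and feedback inhibitor *Socs3*, which had 168 in AD-MSC mice, 432 in UC-MSC mice and 393 in control mice, and which was chosen after its values were seen. Among 6 granulocyte transcription factors, 1 was higher in UC-MSC mice, *Runx1*, with 190.0 in AD-MSC mice, 351 in UC-MSC mice and 199 in control mice, and the median was -0.08.

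The other S100 genes were mixed in UC-MSC mice. Of 11, 6 were higher and 5 lower than in control, none by 2-fold, with a median of 0.08. *S100a4*, abundant in leukocytes and fibroblasts, had 26.0 normalized reads in AD-MSC mice, 56.6 in UC-MSC mice and 36.6 in control mice. In AD-MSC mice 7 of the 11 were lower, 2 of them at least 2-fold, with a median of -0.49. Of 7 receptors and adaptors of calprotectin, 2 were higher in UC-MSC mice and 5 lower, with a median of -0.15. The iron and siderophore list was mixed, with 3 of 5 higher and 2 lower in UC-MSC mice, *Hp* (haptoglobin, which binds free hemoglobin) at 22.5 in AD-MSC mice, 90.7 in UC-MSC mice and 34.2 in control mice, and the transferrin receptor *Tfrc* at 1004 in AD-MSC mice, 491 in UC-MSC mice and 1192 in control mice. Epithelial genes of the interleukin 17 and 22 response, with which *Lcn2* is often counted, had 12 of 17 higher in UC-MSC mice, 4 of them at least 2-fold, and 5 lower, 1 of them at least 2-fold, with a median of 0.22. The lower one was *Ccl20*, an epithelial chemokine, with 40.9 normalized reads in AD-MSC mice, 9.55 in UC-MSC mice and 62.0 in control mice, 6.50-fold lower in UC-MSC mice than in control. *Reg3b*, an antibacterial lectin of the epithelium, had 61.2 in AD-MSC mice, 109 in UC-MSC mice and 21.4 in control mice.

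Markers of several other cell types were also higher in UC-MSC mice. All 12 macrophage genes were higher in UC-MSC mice than in control, 9 at least 2-fold, with a median of 1.19 and sums of 1642 normalized reads in AD-MSC, 2648 in UC-MSC and 1313 in control. Of 8 monocyte genes 7 were higher, 5 at least 2-fold, with a median of 1.10, and *Ccr2* had 45.9 in AD-MSC mice, 142 in UC-MSC mice and 39.2 in control mice. All 10 fibroblast genes were higher in UC-MSC mice, 6 at least 2-fold, with a median of 1.03. The 8 pan-leukocyte genes differed less, 7 higher and none by 2-fold, with a median of 0.32 in UC-MSC mice, and in AD-MSC mice all 7 that were read sufficiently were lower, 3 at least 2-fold, with a median of -0.88. Eosinophil genes were below the minimum throughout, 1 of 9 mast cell genes (*Kit*, also of pacemaker cells of the gut) reached it, and 3 platelet genes had a median of 0.07 in UC-MSC and -0.12 in AD-MSC mice.

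Squamous epithelium, which lines the anus and also makes calprotectin and lipocalin 2, had all 6 of its sufficiently read genes higher in UC-MSC mice, 4 at least 2-fold, with a median of 1.51, and in AD-MSC mice 4 of 5 lower, 2 at least 2-fold, with a median of -0.43. Summed over its 16 genes the level was 104 normalized reads in AD-MSC, 640 in UC-MSC and 288 in control. *Krt14*, a keratin of its basal layer, had 9.14 in AD-MSC mice, 63.8 in UC-MSC mice and 10.9 in control mice. Colonic epithelium differed little, with 7 of 12 genes higher and a median of 0.07, and erythrocyte genes had a median of -1.14 for AD-MSC against control and -0.23 for UC-MSC against control. The part of macrophage, fibroblast and squamous RNA in the values of the 8 genes was not tested.

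**Figure D4:**
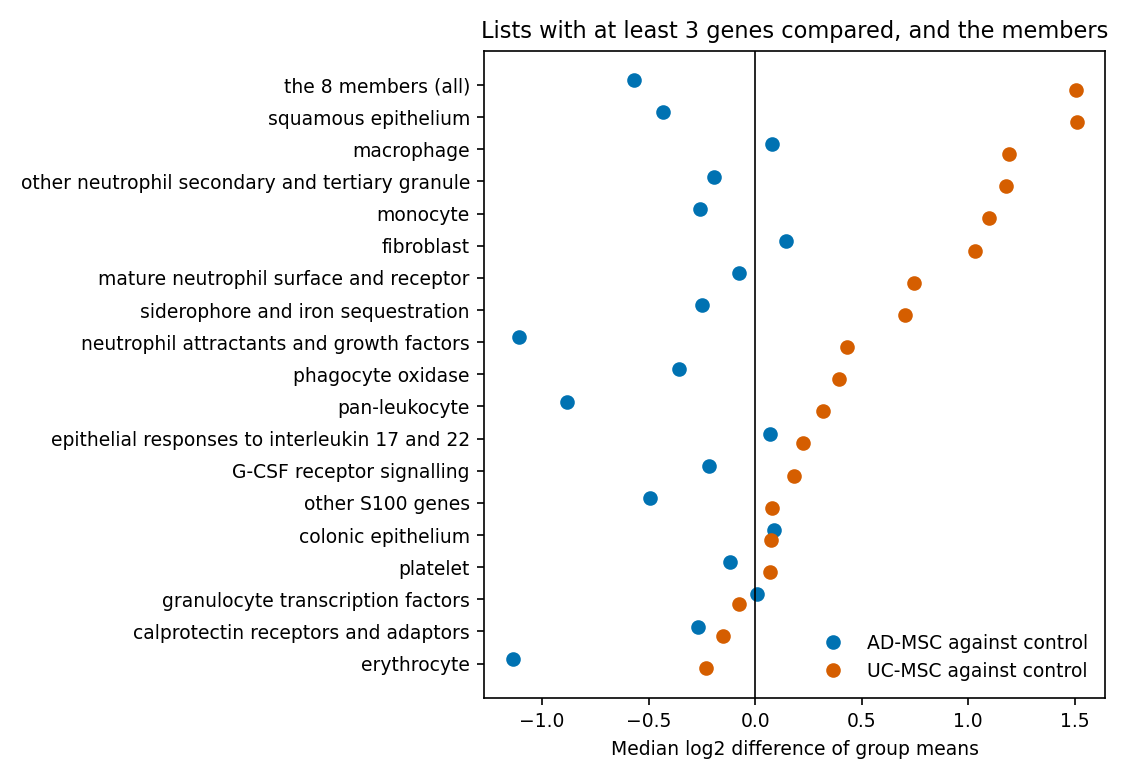
Median log2 difference against control of each gene list with at least 3 genes compared, and of the 8 genes at the top, for AD-MSC and UC-MSC. List medians are over genes averaging 10 or more normalized reads, while that of the 8 genes is over all 8. With that minimum, the UC-MSC median of the members was 1.72 over 4 genes. In UC-MSC mice the 8 genes (1.51), squamous epithelium (1.51), macrophage genes (1.19) and the other secondary and tertiary granule genes (1.18) lie furthest to the right.

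The 10 genes whose pair of differences against control lay nearest to the median pair of the 8 were found by Euclidean distance on the log2 scale. They came from 13529 protein-coding genes averaging 10 or more normalized reads over the 3 groups. The 8 genes and those with Gm, Rik or accession names were left out of that number before ranking. They were *Ctsk*, *Hp*, *Ankrd1*, *Tyrobp*, *Krt10*, *Emilin2*, *Anxa8*, *Ly6g*, *Pdpn* and *Vcan*, at distances of 0.068 to 0.333. The nearest, *Ctsk*, a collagen-degrading protease, had 12.6 normalized reads in AD-MSC mice, 56.2 in UC-MSC mice and 19.5 in control mice. *Tyrobp*, a signalling adaptor of myeloid cells, had 28.3 in AD-MSC mice, 98.2 in UC-MSC mice and 36.7 in control mice. The keratin *Krt10* had 13.5 in AD-MSC mice, 58.9 in UC-MSC mice and 18.2 in control mice, so the list held myeloid, squamous and stromal genes alike.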

How the data were processed

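Total RNA of the medial colon was made into libraries with a SMARTer Stranded Total RNA-Seq Pico kit, after samples with a low RNA integrity number had been left out, and was sequenced on an Illumina instrument as single-end reads. The build was mouse GRCm38/mm10. Of tools, the methods name Strand NGS, and the submitters' notes on processing bcl2fastq 1.8.4 and DESeq. The aligner, and whether counting used strand, is not given in the sources used here. No member overlapped another gene of the table.

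The deposited table held 1 raw and 1 log2 column per group. The log2 column was, as worked out from the values, the authors' mean over 3 libraries of log2 size-factor-scaled reads, after values below 1 had been raised to 1. In the deposited raw column each value was the geometric mean over libraries with reads. Genes with reads in some libraries gave the size factors and the number of libraries with reads, within 0.003 on the log2 scale. Group means were subtracted, and genes averaging 10 or more normalized reads in the groups compared formed the background. A planned test on single libraries could not be run on means. The smallest counting error is the square root of 1/(3 × raw mean) summed over both groups, on the log2 scale. Value columns with no sample or group numbered 0.

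The members and the 22 gene lists were chosen with earlier results of these data known. Lists share some genes. Of each list, up to 4 genes were named, the 2 greatest differences of UC-MSC against control in each direction among genes with that mean. *Ly6g*, *Jak2*, *Csf3*, *Elane*, *Ctsg*, *Mpo* and *Retnlg* were added as markers or pathway members. *Itgam*, *Olfm4*, *Fcnb*, *Chi3l3*, *Mmp25*, *Mxd1*, *Cxcr1* and *Mrgpra2b* were added after their values were seen. Some genes that meet this rule are not reported here. Alternatives were equal totals, centring on the median gene, a pseudocount of 10, reads in all libraries, minimum means of 10 and 50, and leaving out a library at the floor. The steps were tested on simulated data. Promoters are from RefSeq (GRCm38.p6) and exon lengths from GENCODE M21. Python 3.11.15, pandas 2.3.3, numpy 2.4.6 and matplotlib 3.10.9 were used.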

Additional observations from a re-analysis of the deposited data

How the results depend on the processing

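The direction of the 3 medians over the 8 genes held under every alternative run. That of single genes held under the pseudocount, equal totals and centring, except for *Camp* in UC-MSC against control, which changed sign on scaling to equal totals. A pseudocount of 10 moved all 24 single-gene differences toward 0. With it, the median was -0.18 in AD-MSC against control, 0.57 in UC-MSC against control and 0.79 in UC-MSC against AD-MSC. In UC-MSC against control, 2 of the 8 were then at least 2-fold higher, as were 2.41% of 15026 genes. In UC-MSC against AD-MSC, 3 of the 8 were, as were 2.36% of 15074 genes. Keeping only genes with reads in all libraries leaves fewer genes. Of 4 left in UC-MSC against control, 3 were 2-fold higher, as were 4.97% of 14985 genes. Of 3 left in UC-MSC against AD-MSC, 2 were, with a median of 2.34, as were 4.27% of 15008 genes. A minimum mean of 10 normalized reads, an alternative chosen after seeing the data, left 3 of 4 in each of these comparisons. The shares over all genes were 5.09% and 4.50%, and the median was 2.34 in UC-MSC against AD-MSC. A minimum of 50 left none of the 8 genes. No paired analysis was possible because the table gives 1 mean per group, and for the same reason a library could be left out only for a gene that it had at the floor, which raises that group. These values were added after seeing the data. Over such libraries, the count of genes 2-fold higher ranged over 3 to 5 and the median over 0.68 to 1.51 in UC-MSC against control, and the median over 1.38 to 1.94 in UC-MSC against AD-MSC, with 5 genes 2-fold higher. In AD-MSC against control the median ranged over -0.62 to -0.32, and *S100a9* and *Mmp8* were higher in AD-MSC without the AD-MSC library of size factor 1.47, as was *Mmp8* without that of 0.893. The depth limits *Ngp*, *Camp* and *Mmp8* most.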
